A study of Mus musculus with 12 samples.

Results

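The kinesin family genes measured here were 38 of the 19938 genes tested. They were chosen as the genes whose symbol begins with Kif followed by a digit and which had a probe set (the group of array probes that reports on a transcript) annotated to that symbol alone. There were 44 such probe sets, and for each gene the one with the highest mean over the 12 arrays was used. This rule used gene names and signal level but no difference between groups. The family and its classes were, however, chosen with earlier results of these data known. By known role, 11 of the 38 are mitotic motors, 15 are transport motors, 11 fall in neither class and 1, Kif4-ps, is annotated as a pseudogene.

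RNA came from spleen cells of 3-month-old mice, sorted for the erythroid surface protein Ter119 and for high CD71, the transferrin receptor, a sort that takes nucleated red cell precursors. The 4 groups, each of 3 arrays, carried the labels WT (wild type), E2f8 KO (knockout of E2f8), Rb KO (knockout of Rb) and DKO (knockout of both). E2f8 encodes a repressor of the E2F family, and Rb1 encodes the retinoblastoma protein, which holds activating E2F factors in check. The sources used here give no strain, kind of allele, Cre driver or treatment. The labels call the arrays of a group biological replicates, and p-values measure the spread between these arrays.

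Kinesins are motor proteins that use ATP to walk along microtubules or to take their ends apart. Mitotic kinesins build the spindle, move and hold chromosomes, and complete the division of the cell, and many of them are transcribed mainly in the later part of the cell cycle. Transport kinesins carry vesicles, organelles and protein complexes through cells at rest as well as in division. Red cell precursors pass through several divisions before they expel the nucleus, so both kinds of motor are of interest in them.

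Promoter sequences are shown because the 11 mitotic kinesins had differences of the same sign in 3 of the comparisons that follow. RefSeq windows on GRCm38.p6, from 250 bases before to 50 bases after the transcription start, were matched for 31 of the 38 kinesins. Kif4-ps, Kif5a, Kif5b, Kif13b, Kif19a, Kif20a and Kif21b were not matched. Each window was searched on both strands for the E2F-type words TTTCCCGC, TTTCGCGC, TTTGCCGC and TTTGGCGC, for the CHR word TTTGAA (the cell cycle genes homology region, known from late cell cycle promoters) and for CCAAT. No word contains another, and the neighbouring matches in Kif15 share no base. Below are the 100 bases just before the start, 5′ to 3′ on the strand of the gene, with matches on either strand in capitals. Kif11 (chr19:37376282-37376381, plus strand) and Kif22 (chr7:127042421-127042520, minus strand) show a CCAAT match followed by a CHR match. Kif15 (chr9:122950981-122951080, plus strand) shows an E2F-type match directly beside a CHR match, and Kif18a (chr2:109280638-109280737, plus strand) an E2F-type match alone. Kif1b (chr4:149307734-149307833, minus strand, 1 of 2 windows of the gene) is a transport kinesin shown for contrast, with a CCAAT match alone.
Kif11: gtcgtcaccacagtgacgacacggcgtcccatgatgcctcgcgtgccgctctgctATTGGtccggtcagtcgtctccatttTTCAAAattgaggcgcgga
Kif22: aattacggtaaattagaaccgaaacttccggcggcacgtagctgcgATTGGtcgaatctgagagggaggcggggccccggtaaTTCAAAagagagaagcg
Kif15: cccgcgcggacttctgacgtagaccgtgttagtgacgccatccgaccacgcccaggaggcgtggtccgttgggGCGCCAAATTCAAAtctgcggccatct
Kif18a: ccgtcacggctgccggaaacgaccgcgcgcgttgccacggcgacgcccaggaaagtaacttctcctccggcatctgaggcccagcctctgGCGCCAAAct
Kif1b: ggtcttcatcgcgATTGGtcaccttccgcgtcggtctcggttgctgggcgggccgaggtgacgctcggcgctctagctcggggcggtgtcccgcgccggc

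The CHR word was present in the windows of 9 of 10 matched mitotic kinesins, 1 of 11 transport kinesins and 2 of 10 others. Over all 27025 genes with a window it was present in 20.2%, and in 17.9% of all 32851 windows. The transport kinesin with the word was Kif1a, and the others were Kif26b and Kif27. In Kif11, Kif15 and Kif22 a match lay close before the start, from -19 to -14 in Kif11 and Kif15 and from -17 to -12 in Kif22. In Kif18b, Kif20b, Kif23 and Kif4 it lay just after the start. In Kif14 and Kif2c the only match lay further before the start, from -228 to -223 and from -103 to -98. CCAAT was present in 6 of 10 mitotic, 3 of 11 transport and 5 of 10 other kinesins, against 41.1% of all genes and 37.4% of windows. Both CHR and CCAAT were present in 6 of 10 mitotic kinesins, none of 11 transport kinesins, 2 of 10 others and 7.97% of all genes. An E2F-type word was present only in Kif15 and Kif18a among the 31 kinesins, against 2.61% of all genes and 2.26% of windows. A match describes letters in this window and is not a measured binding site, and a window without one says nothing of the factor.

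**Figure D1:**
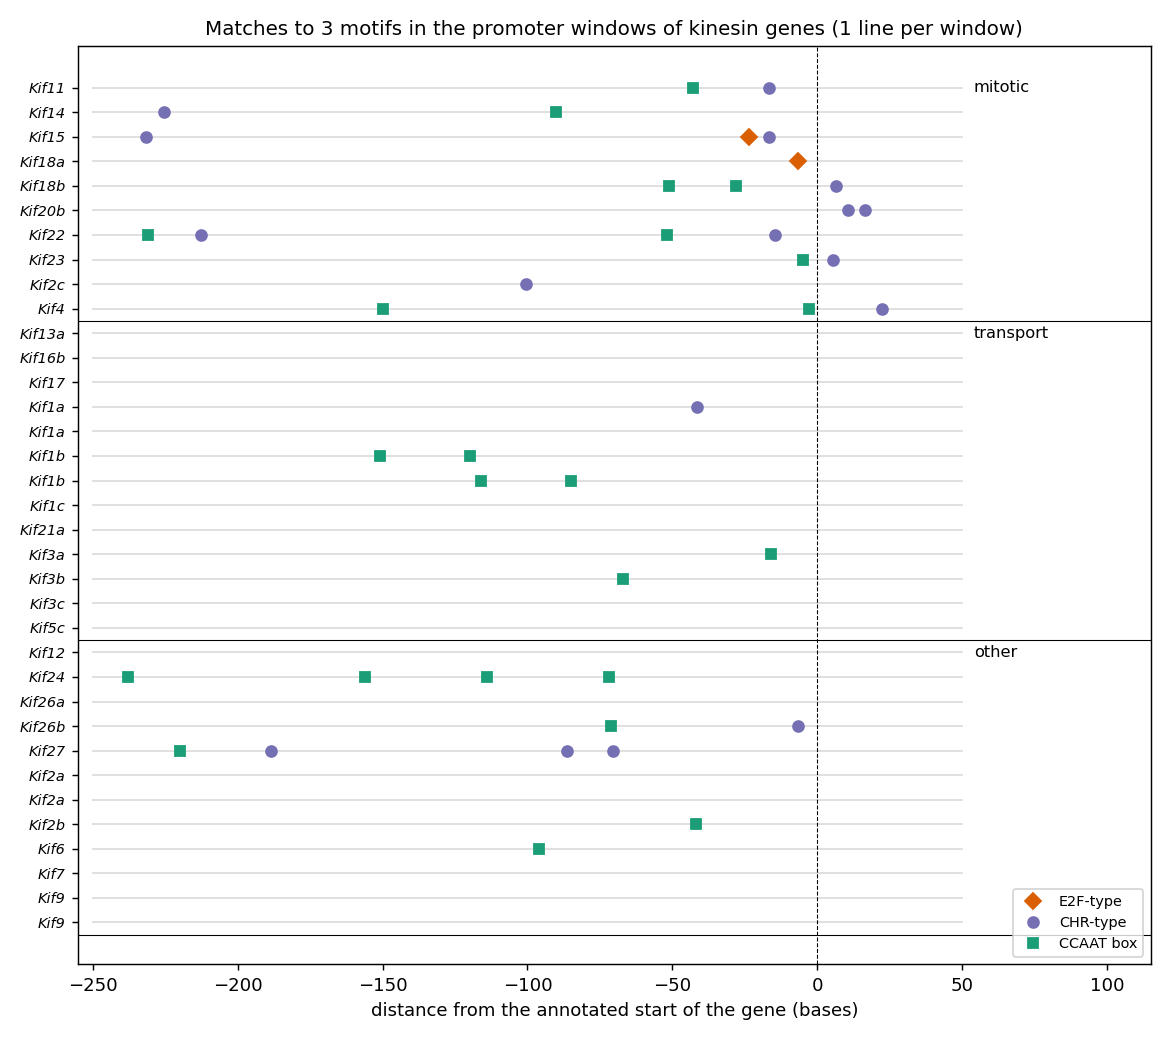
Positions of E2F-type, CHR and CCAAT matches in bases from the transcription start (horizontal axis, 250 before to 50 after) in the promoter windows of the 31 matched kinesin genes, 1 line per window. CHR matches mark 9 of the 10 mitotic kinesins with a window, while among transport kinesins only Kif1a has one.

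The knocked-out genes followed the labels only in part. The log2 signal of Rb1 was 13.02, 12.74 and 12.71 in WT, 11.74, 11.68 and 11.72 in arrays labelled E2f8 KO, 12.53, 12.33 and 12.39 in those labelled Rb KO, and 12.23, 11.98 and 12.17 in those labelled DKO. E2f8 signal was 12.28, 11.70 and 11.88 in WT, 12.89, 12.81 and 12.74 in arrays labelled E2f8 KO, 12.36, 12.52 and 11.68 in those labelled Rb KO, and 13.13, 13.17 and 13.09 in those labelled DKO. Rb1 was below every WT array in all arrays labelled Rb KO or DKO, with a limma call in DKO against WT (-0.70, adjusted p = 0.000630) and none in Rb KO against WT (-0.41, adjusted p = 0.460). It was, however, lowest in the arrays labelled E2f8 KO (-1.11 against WT, limma adjusted p = 0.000170). E2f8 was higher than in every WT array in both groups labelled as lacking it. Its differences from WT were 0.86 for E2f8 KO (limma adjusted p = 0.00832) and 1.18 for DKO (adjusted p = 0.000473). The sources used here do not say whether the probes lie in the deleted parts. Groups below are named by their labels, and every direction rests on those labels.

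Markers of the sorted cells were high in all arrays, and some of them differed between groups, as did markers of other cells. Over 11 measured erythroid markers, including Tfrc, Alas2 and Klf1, the mean log2 signal per array ranged from 12.36 to 13.09. Of the 11, 1 rose and 2 fell in E2f8 KO against WT, 2 rose and 2 fell in DKO against WT, and 4 rose and 2 fell in DKO against Rb KO. Over all genes, 16.2%, 25.4% and 24.8% were called in these comparisons. Epor, the erythropoietin receptor, had a mean log2 signal of 11.30 in WT, 12.16 with the E2f8 KO label, 10.96 with Rb KO and 11.96 with DKO, an order of groups shared with the mitotic kinesins. Alas2 and Fech, enzymes of heme synthesis, had 14.24 and 13.65 in WT and 13.97 and 13.26 with the E2f8 KO label. These 3 were chosen after their values were seen. Over 14 measured B cell markers the array means were 10.59 to 11.88 in WT, 8.08 to 8.44 in arrays labelled E2f8 KO, 9.94 to 12.07 in those labelled Rb KO and 6.42 to 7.63 in those labelled DKO. Macrophage markers (18 genes) ran, in the same order of groups, from 9.10 to 9.97, 8.26 to 8.38, 8.59 to 8.83 and 7.16 to 7.81. Granulocyte markers (17 genes) ran from 6.09 to 6.19, 7.86 to 8.30, 6.55 to 6.62 and 6.52 to 10.04. T cell markers (9 genes) ran from 7.73 to 8.02, 6.17 to 6.34, 7.03 to 8.09 and 5.83 to 5.96. In E2f8 KO against WT, 13 of 14 B cell, 14 of 18 macrophage and 8 of 9 T cell markers fell, where 8.87% of all genes did, and 9 of 17 granulocyte markers rose, where 7.29% of all genes did. In DKO against WT, 14 of 14 B cell, 16 of 18 macrophage and 8 of 9 T cell markers fell, against 11.9% of all genes, and 9 of 17 granulocyte markers rose, against 13.4%. In DKO against Rb KO, 14 of 14, 14 of 18 and 9 of 9 fell, against 11.9%, and 3 of 17 rose, against 12.9%. No defining marker was listed at 0. Rb KO replicate 1 stood apart from its group in B cell markers, and DKO replicate 3 in granulocyte markers. These lists moved in the 3 comparisons in which kinesins were called, given below. In DKO against E2f8 KO, 3 of 14 B cell and 4 of 18 macrophage markers fell, and 1.37% of all genes were called. Macrophage markers had a median log2 difference of -0.92 in Rb KO against WT, where no marker of theirs was called. The B cell, T cell and granulocyte medians in that comparison were 0.17, -0.31 and 0.35, also with no marker called. The part of these lists in the kinesin differences was not tested. A fit with the B cell mean as a covariate is given below. B cell means in WT and Rb KO arrays did not overlap those in E2f8 KO and DKO arrays. That fit therefore cannot separate the B cell list from the labels.

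The mean log2 signal of the 11 mitotic kinesins was 10.24, 9.55 and 9.74 in the WT arrays, 10.96, 10.91 and 10.87 in those labelled E2f8 KO, 10.43, 9.76 and 9.04 in those labelled Rb KO, and 10.75, 10.79 and 10.76 in those labelled DKO. Every array labelled E2f8 KO or DKO lay above every WT and Rb KO array. The group means were 9.84 ± 0.35, 10.91 ± 0.05, 9.74 ± 0.70 and 10.76 ± 0.02 (SD, n = 3). The spread between arrays was thus wider in the WT and Rb KO groups than in the other two. Rb KO replicate 3, the lowest array for mitotic kinesins, was also the lowest for erythroid markers, at 12.36. The 15 transport kinesins had array means of 6.59, 6.64 and 6.56 in WT arrays, 6.43, 6.50 and 6.40 with the E2f8 KO label, 6.49, 6.69 and 6.61 with Rb KO, and 6.38, 6.40 and 6.51 with DKO. All their array means lay between 6.38 and 6.69, and no test was made of either class mean. In bulk RNA, a change in the share of dividing cells and a change of RNA per cell cannot be told apart.

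**Figure D2:**
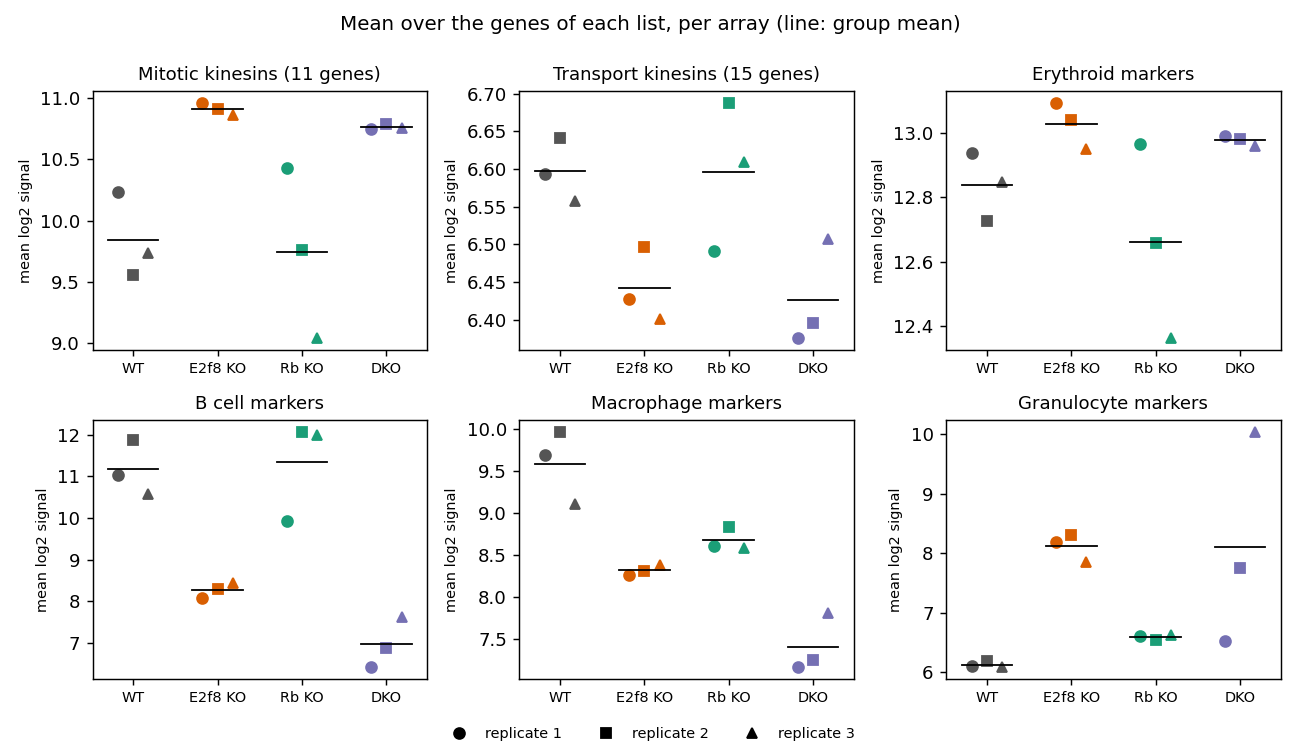
Mean log2 signal of each kinesin class in each of the 12 arrays (points, with a line at the group mean) by genotype label, for mitotic and transport kinesins and for erythroid, B cell, macrophage and granulocyte markers. Mitotic kinesin means are 10.87 to 10.96 in E2f8 KO and 10.75 to 10.79 in DKO, above all WT and Rb KO arrays, while B cell marker means are lowest in those same groups.

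In arrays labelled E2f8 KO against WT, 9 of the 11 mitotic kinesins rose and none fell, while 1 of 15 transport kinesins rose and 3 fell. Kif22, Kif4, Kif2c, Kif20a and Kif18a showed the largest rises among mitotic kinesins, with log2 differences from 1.18 to 1.31. The kinesins called in all were 11 higher and 3 lower of 38, at a limma adjusted p under 0.05. Over all genes 16.2% were called, 7.29% higher and 8.87% lower. The median log2 difference was 1.10 for mitotic kinesins (range 0.71 to 1.31), -0.01 for transport kinesins (-1.81 to 0.72), 0.19 for the 11 others and 0.07 for all genes. Of the transport kinesins, 12 had a mean signal below the level that 60% of probe sets did not reach (6.83), close to the array medians of 6.22 to 6.35. Over the 3 above it, Kif13b, Kif21b and Kif5b, the median was 0.51. All 11 mitotic kinesins had E2f8 KO and WT arrays that did not overlap, with E2f8 KO higher, against 18.9% of all genes. These statements depend on the classes: Kif2a, which also acts at spindle poles, and Kif2b were placed among the others. Their differences of 0.19 and 0.17 were not called, and the arrays of Kif2b overlapped.

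Among the motors that build the spindle, Kif11 slides antiparallel microtubules apart to keep the poles separate. Its log2 signal was 12.16, 11.47 and 11.70 in WT arrays, 12.77, 12.73 and 12.64 with the E2f8 KO label, 12.25, 11.66 and 11.02 with Rb KO, and 12.47, 12.42 and 12.49 with DKO. The E2f8 KO and DKO arrays were all above the WT arrays, and the Rb KO arrays spanned the WT range. The log2 difference was 0.94 ± 0.24 (SE) for E2f8 KO against WT (adjusted p = 0.0173). Kif15, which can take over part of the work of Kif11, had 10.10, 9.40 and 9.64 in WT arrays, 10.39, 10.44 and 10.43 with the E2f8 KO label, 10.21, 9.54 and 8.89 with Rb KO, and 10.49, 10.41 and 10.43 with DKO. Its E2f8 KO and DKO arrays too were all above the WT arrays, but its log2 difference of 0.71 ± 0.27 was not called in E2f8 KO against WT (adjusted p = 0.0927).

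Kif18a and Kif18b act at microtubule plus ends, Kif18a to damp chromosome movement at the metaphase plate. Kif18a log2 signal was 10.02, 9.21 and 9.65 in WT arrays, 10.91, 10.73 and 10.77 with the E2f8 KO label, 10.13, 9.33 and 8.55 with Rb KO, and 10.70, 10.55 and 10.64 with DKO. Its log2 difference was 1.18 ± 0.31 for E2f8 KO against WT (adjusted p = 0.0196), with no overlap between the groups. Kif18b had 11.87, 11.49 and 11.55 in WT arrays, 12.72, 12.56 and 12.50 with the E2f8 KO label, 11.96, 11.64 and 11.08 with Rb KO, and 12.49, 12.60 and 12.39 with DKO. Its difference of 0.96 ± 0.19 was called with the smallest adjusted p of the mitotic kinesins in this comparison (0.00435). Kif2c, which takes microtubules apart at wrongly attached kinetochores, had 9.13, 8.53 and 8.61 in WT arrays, 10.06, 9.92 and 9.90 with the E2f8 KO label, 9.38, 8.35 and 7.55 with Rb KO, and 9.29, 9.56 and 9.43 with DKO. Its DKO arrays lay below its E2f8 KO arrays. Kif2c rose by 1.20 ± 0.34 in E2f8 KO against WT (adjusted p = 0.0264).

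Kif22 and Kif4 bind chromosomes, Kif22 to push the arms outward and Kif4 to shape chromosomes and the midzone. Kif22 log2 signal was 10.45, 9.68 and 9.98 in WT arrays, 11.39, 11.33 and 11.31 with the E2f8 KO label, 10.75, 10.04 and 9.32 with Rb KO, and 11.31, 11.27 and 11.10 with DKO. All E2f8 KO and DKO arrays were above all WT and Rb KO arrays. The difference for E2f8 KO against WT was 1.31 ± 0.28 (adjusted p = 0.00791). Kif4 had 9.86, 9.05 and 9.14 in WT arrays, 10.63, 10.71 and 10.51 with the E2f8 KO label, 9.99, 9.32 and 8.16 with Rb KO, and 10.31, 10.39 and 10.50 with DKO. Kif4 rose by 1.27 ± 0.35 in E2f8 KO against WT (adjusted p = 0.0245). The near copy Kif4-ps is on the array, so Kif4 values are uncertain to the extent that its probes detect both.

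The cytokinesis motors were Kif14, Kif20a, Kif20b and Kif23. Kif23 forms the centralspindlin complex with Racgap1 and had log2 signal of 10.84, 10.28 and 10.50 in WT arrays, 11.66, 11.52 and 11.50 with the E2f8 KO label, 11.07, 10.36 and 10.02 with Rb KO, and 11.53, 11.44 and 11.51 with DKO. It rose by 1.01 ± 0.22 in E2f8 KO against WT (adjusted p = 0.00841), and the groups did not overlap. Kif20a brings the chromosomal passenger complex to the midzone and had 10.38, 9.80 and 9.86 in WT arrays, 11.29, 11.11 and 11.21 with the E2f8 KO label, 10.87, 10.10 and 9.34 with Rb KO, and 10.89, 11.09 and 10.87 with DKO. The highest Rb KO array reached the lowest DKO arrays for this gene. Kif20a rose by 1.19 ± 0.29 (adjusted p = 0.0139) and Kif20b, which acts late in cell separation, by 1.10 ± 0.27 (adjusted p = 0.0132) in E2f8 KO against WT. Kif20b arrays were 7.55, 6.72 and 7.01 in WT arrays, 8.11, 8.26 and 8.23 with the E2f8 KO label, 7.65, 7.32 and 6.48 with Rb KO, and 8.24, 8.30 and 8.37 with DKO. Kif14, a partner of citron kinase at the midbody, had 10.23, 9.47 and 9.45 in WT arrays, 10.66, 10.69 and 10.53 with the E2f8 KO label, 10.50, 9.72 and 9.02 with Rb KO, and 10.50, 10.61 and 10.60 with DKO. Its difference of 0.91 ± 0.30 was not called (adjusted p = 0.0552). A second probe set of Kif14, of mean log2 signal 4.88, gave a log2 difference of 0.47.

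**Figure D3:**
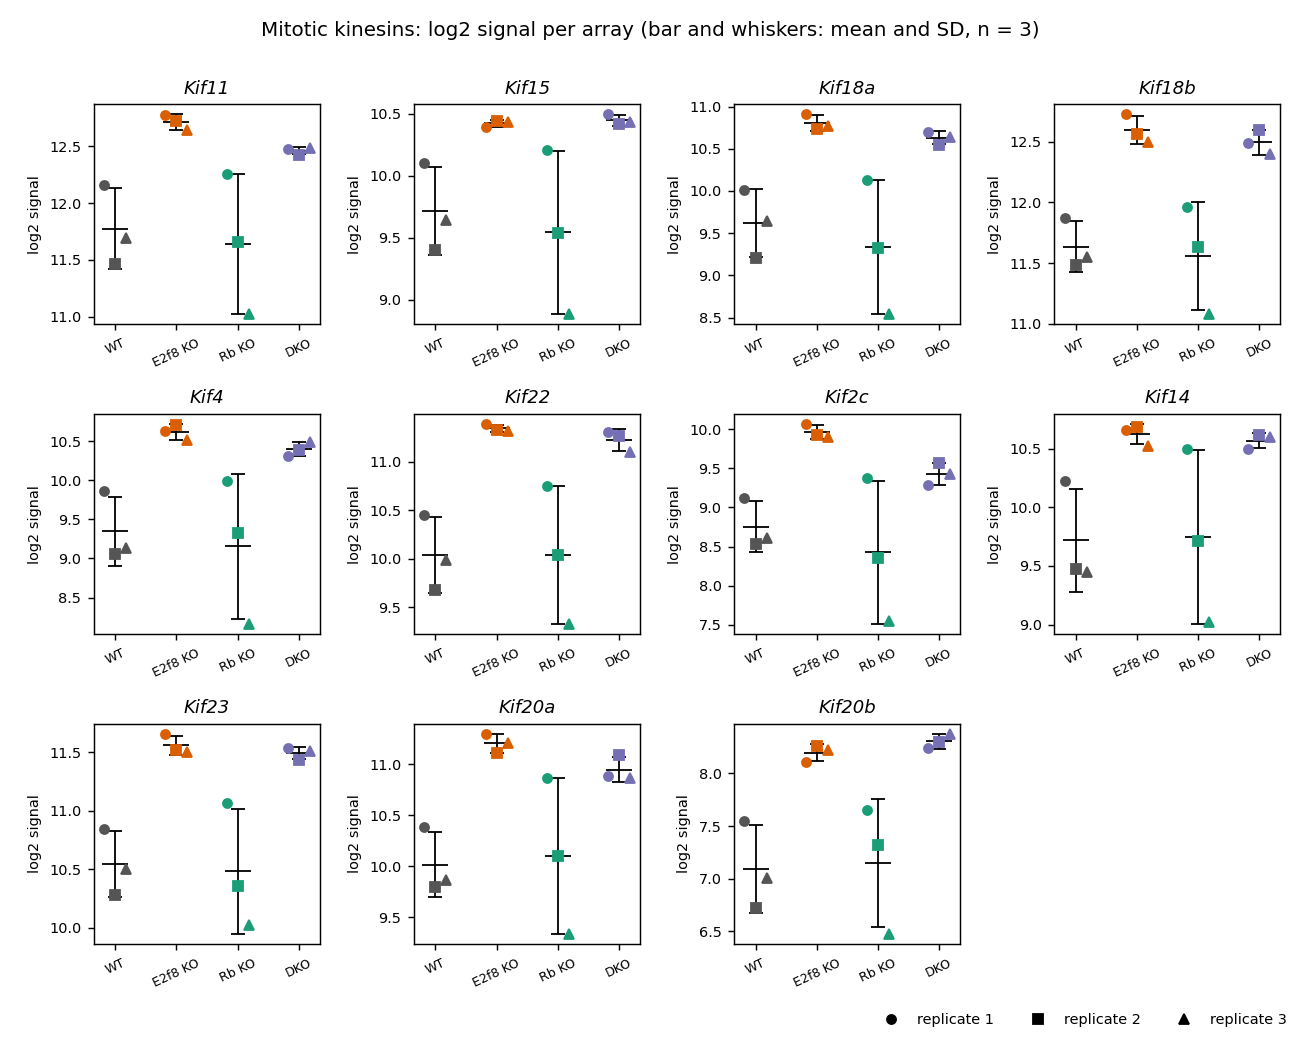
Log2 signal of each of the 11 mitotic kinesins in each of the 12 arrays (points), with the mean and SD of each group of 3, by genotype label. In each panel all 3 E2f8 KO arrays lie above all 3 WT arrays, and the Rb KO arrays spread widely.

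Among transport kinesins, Kif13b rose and Kif16b, Kif1b and Kif21b fell in E2f8 KO against WT. Kif13b, which carries membrane and scaffold cargo, had log2 signal of 7.78, 7.38 and 7.38 in WT arrays, 8.30, 8.25 and 8.14 with the E2f8 KO label, 7.39, 7.25 and 7.20 with Rb KO, and 8.50, 8.49 and 8.65 with DKO. Its E2f8 KO and DKO arrays were above all WT and Rb KO arrays, and the difference was 0.72 ± 0.16 (adjusted p = 0.00965). Kif21b, a motor that also limits microtubule growth, had 7.93, 8.88 and 7.77 in WT arrays, 6.37, 6.44 and 6.35 with the E2f8 KO label, 6.95, 9.02 and 9.11 with Rb KO, and 6.3, 6.03 and 6.67 with DKO. Its difference was -1.81 ± 0.45 (adjusted p = 0.0155). The array of Rb KO with the low value, replicate 1, was also the lowest of that group in B cell markers, at 9.94 where the highest was at 12.07. Across the groups, Kif21b was high where B cell markers were high, and the part of those cells in its fall was not tested.

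Kif16b, which moves early endosomes, had 6.58, 6.86 and 6.43 in WT arrays, 5.45, 6.05 and 5.71 with the E2f8 KO label, 6.21, 6.85 and 6.85 with Rb KO, and 5.41, 5.74 and 6.3 with DKO. It fell by 0.89 ± 0.24 in E2f8 KO against WT (adjusted p = 0.0220). Kif1b, a carrier of mitochondria and vesicle precursors, had 6.77, 6.99 and 6.67 in WT arrays, 6.26, 6.32 and 6.26 with the E2f8 KO label, 6.50, 6.77 and 6.79 with Rb KO, and 5.94, 6.09 and 6.47 with DKO. It fell by 0.53 ± 0.15 (adjusted p = 0.0316). Both genes also had their lowest Rb KO value in replicate 1. Of the transport kinesins that were not called in any comparison, Kif3b, Kif1c, Kif1a and Kif3a had the highest mean signal. Their differences in E2f8 KO against WT were -0.43, -0.22, -0.17 and -0.01, with adjusted p from 0.0915 to 0.967. Kif27, a relative of Kif7, was the only other kinesin called, at 0.39 ± 0.12 (adjusted p = 0.0447). Its mean signal lay below the level that 40% of probe sets did not reach (5.84), as did those of Kif21a, Kif5a, Kif5c, Kif2b and Kif4-ps. The remaining 32 kinesins lay above it, among them all 11 mitotic ones.

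Calls in E2f8 KO against WT depended on single arrays. Kif18b, Kif22 and Kif23 were called in all 12 fits that left out 1 array. Without WT replicate 2 they were the 3 kinesins called, and 5, 7 and 9 were called without E2f8 KO replicate 1, 2 and 3. With the B cell marker mean as a covariate, no kinesin was called and the median difference of mitotic kinesins was 0.088. As B cell means of these groups did not overlap, this fit cannot separate them from the labels.

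**Figure D4:**
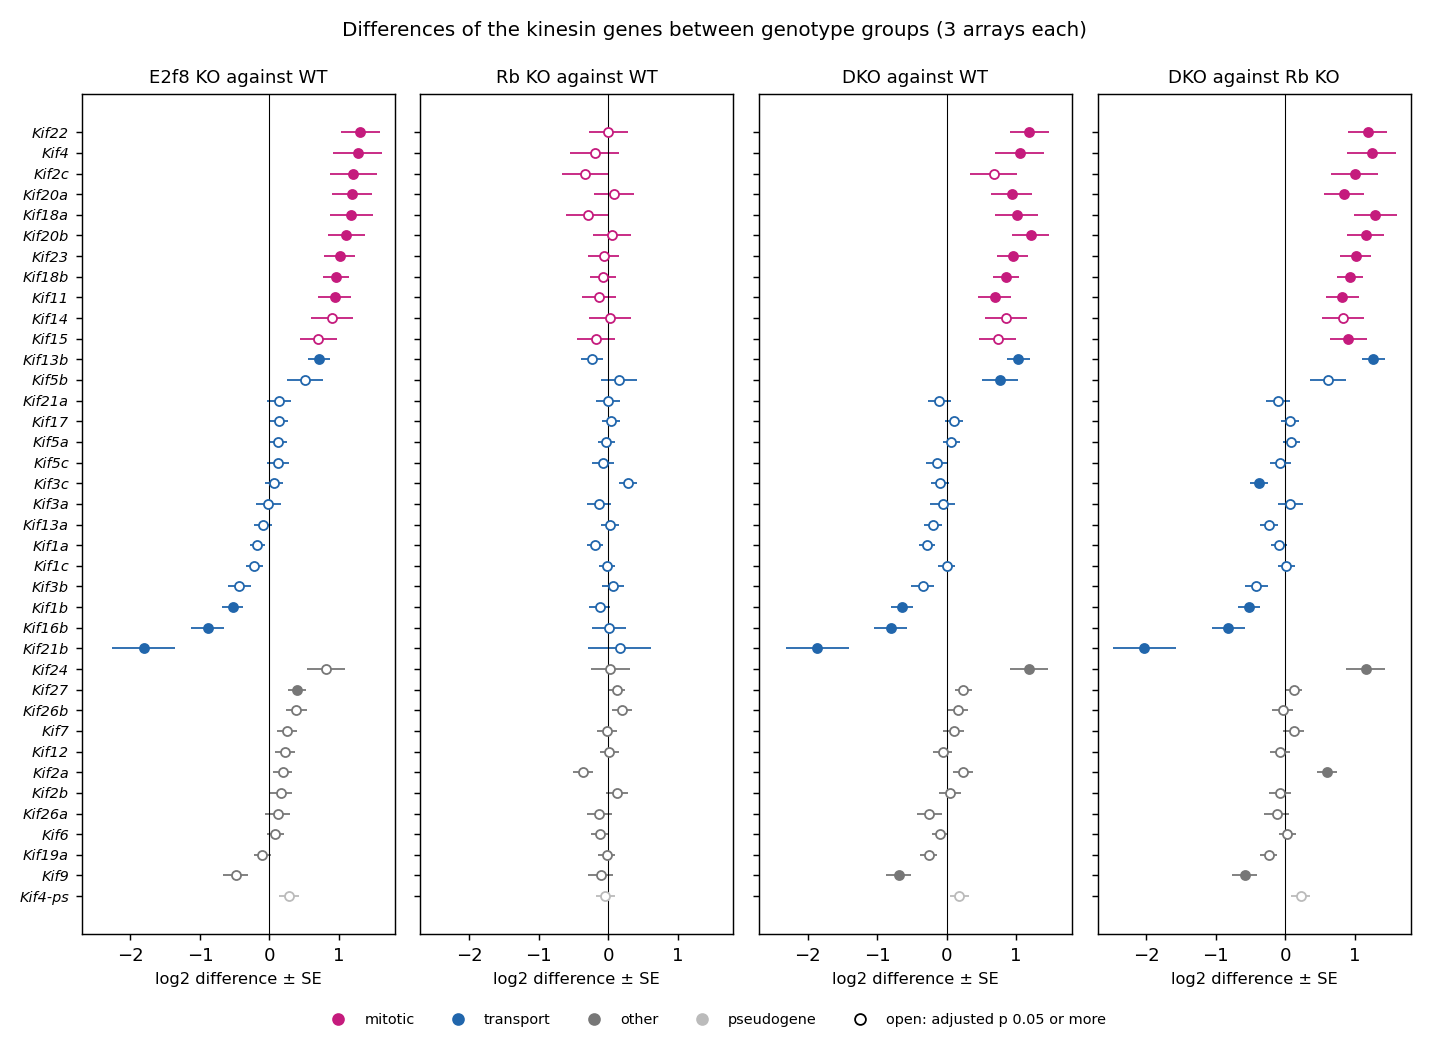
Log2 difference with its SE for each kinesin, by class, in 4 comparisons of genotype labels, with filled points for those called. Mitotic kinesins lie to the right of 0 in all but the comparison of Rb KO with WT, from 0.67 to 1.31, while transport kinesins lie on both sides, from -2.03 for Kif21b to 1.26 for Kif13b.

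In arrays labelled Rb KO against WT, no kinesin was called, and 0.00502% of all genes were (1 gene). At an unadjusted p under 0.05 there was 1 kinesin of 38, Kif2a, at a log2 difference of -0.36, and 913 genes in all. The median difference was -0.08 for mitotic kinesins (range -0.33 to 0.09) and 0.01 for all genes. The mitotic median was -0.35 without Rb KO replicate 1 and 0.18 without Rb KO replicate 3, so its sign rested on single arrays. With array weights, 2 kinesins were called, Kif2a and Kif3c. The wide spread of the Rb KO arrays, with a group SD of 0.70 in the mitotic mean, limits this comparison.

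In arrays labelled DKO against WT, 8 of 11 mitotic kinesins rose and none fell, 2 of 15 transport kinesins rose and 3 fell, and of the others 1 rose and 1 fell. Over all genes 25.4% were called, 13.4% higher and 11.9% lower. This comparison shares the WT arrays with that of E2f8 KO. The median log2 difference was 0.93 for mitotic kinesins (0.67 to 1.21), -0.11 for transport kinesins, 0.05 for the others and 0.0029 for all genes. The 11 mitotic kinesins had no overlap between DKO and WT arrays, with DKO higher, against 18.5% of all genes. Kif20b (1.21, adjusted p = 0.00408), Kif22 (1.19, adjusted p = 0.00661), Kif4 (1.05, adjusted p = 0.0403) and Kif18a (1.0, adjusted p = 0.0276) had the largest rises among mitotic kinesins. Kif2c, Kif14 and Kif15 were not called, at 0.67, 0.85 and 0.73 with adjusted p of 0.180, 0.0521 and 0.0626.

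Kif13b rose by 1.03 (adjusted p = 0.000413) in DKO against WT, and Kif16b, Kif1b and Kif21b had differences of -0.80, -0.65 and -1.86 with adjusted p from 0.00683 to 0.0226. Kif5b, the widely expressed heavy chain of conventional kinesin, had 9.70, 9.0 and 9.08 in WT arrays, 9.63, 9.91 and 9.77 with the E2f8 KO label, 9.75, 9.54 and 8.96 with Rb KO, and 9.63, 9.99 and 10.47 with DKO. It was called in DKO against WT at 0.77 (adjusted p = 0.0436), although the lowest DKO array lay below the highest WT array. Kif24, which acts at centrioles to restrain cilium formation, had 9.39, 8.39 and 8.85 in WT arrays, 9.76, 9.51 and 9.79 with the E2f8 KO label, 9.48, 8.86 and 8.38 with Rb KO, and 10.03, 10.14 and 10.01 with DKO. Its DKO arrays were above all others, and it rose by 1.19 (adjusted p = 0.00579). Kif9, known from motile cilia, had 6.27, 6.51 and 6.26 in WT arrays, 5.93, 5.78 and 5.87 with the E2f8 KO label, 5.76, 6.48 and 6.48 with Rb KO, and 5.73, 5.79 and 5.44 with DKO. It had a difference of -0.69 ± 0.18 (adjusted p = 0.0110), and its low Rb KO array was again replicate 1. The number of kinesins called, 15, was 8 without WT replicate 2 and 9 without DKO replicate 2 or replicate 3. It was 0 with the B cell covariate, with which the median of mitotic kinesins was -0.62, a fit that again cannot separate B cell means from the labels.

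In arrays labelled DKO against those labelled Rb KO, 10 of 11 mitotic kinesins rose and none fell, 1 of 15 transport kinesins rose and 4 fell, and of the others 2 rose and 1 fell. Over all genes 24.8% were called, 12.9% higher and 11.9% lower. This comparison has no array in common with E2f8 KO against WT, although 1 fit of all 12 arrays gave the spread for both. It shares DKO with the comparison above. Median log2 differences were 1.0 for mitotic kinesins (0.82 to 1.29), -0.09 for transport kinesins, -0.04 for the others and 0.0096 for all genes. Kif18a had the largest difference among mitotic kinesins (1.29, adjusted p = 0.00714), then Kif4 (1.24, adjusted p = 0.0179) and Kif22 (1.19, adjusted p = 0.00707). Kif14 alone among the mitotic kinesins was not called (0.83, adjusted p = 0.0609). For 8 of the 11 the arrays did not overlap, against 19.4% of all genes with DKO higher.

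Of the other kinesins, Kif13b had a difference of 1.26 (adjusted p = 0.000161) and Kif21b one of -2.03 (adjusted p = 0.00477) in DKO against Rb KO. Kif3c, a transport kinesin, was called at -0.38 ± 0.13 (adjusted p = 0.0499), and in 3 of the 12 fits that left out 1 array. Kif2a, which takes microtubules apart at the spindle poles and in resting cells, had 11.53, 11.40 and 11.68 in WT arrays, 11.72, 11.73 and 11.73 with the E2f8 KO label, 11.49, 11.03 and 11.02 with Rb KO, and 11.78, 11.79 and 11.75 with DKO. Kif2a rose by 0.60 ± 0.14 (adjusted p = 0.00680), with the Rb KO arrays below all DKO arrays. Of the other kinesins not called in any comparison, Kif26a, Kif7, Kif19a and Kif26b had the highest mean signal. Of the 18 kinesins called, 9 were called without Rb KO replicate 3, 10 without Rb KO replicate 2 and 11 without DKO replicate 1, 2 or 3. None was called with the B cell covariate, with which the median of mitotic kinesins was -0.60, and the same limit holds for that fit.

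**Figure D5:**
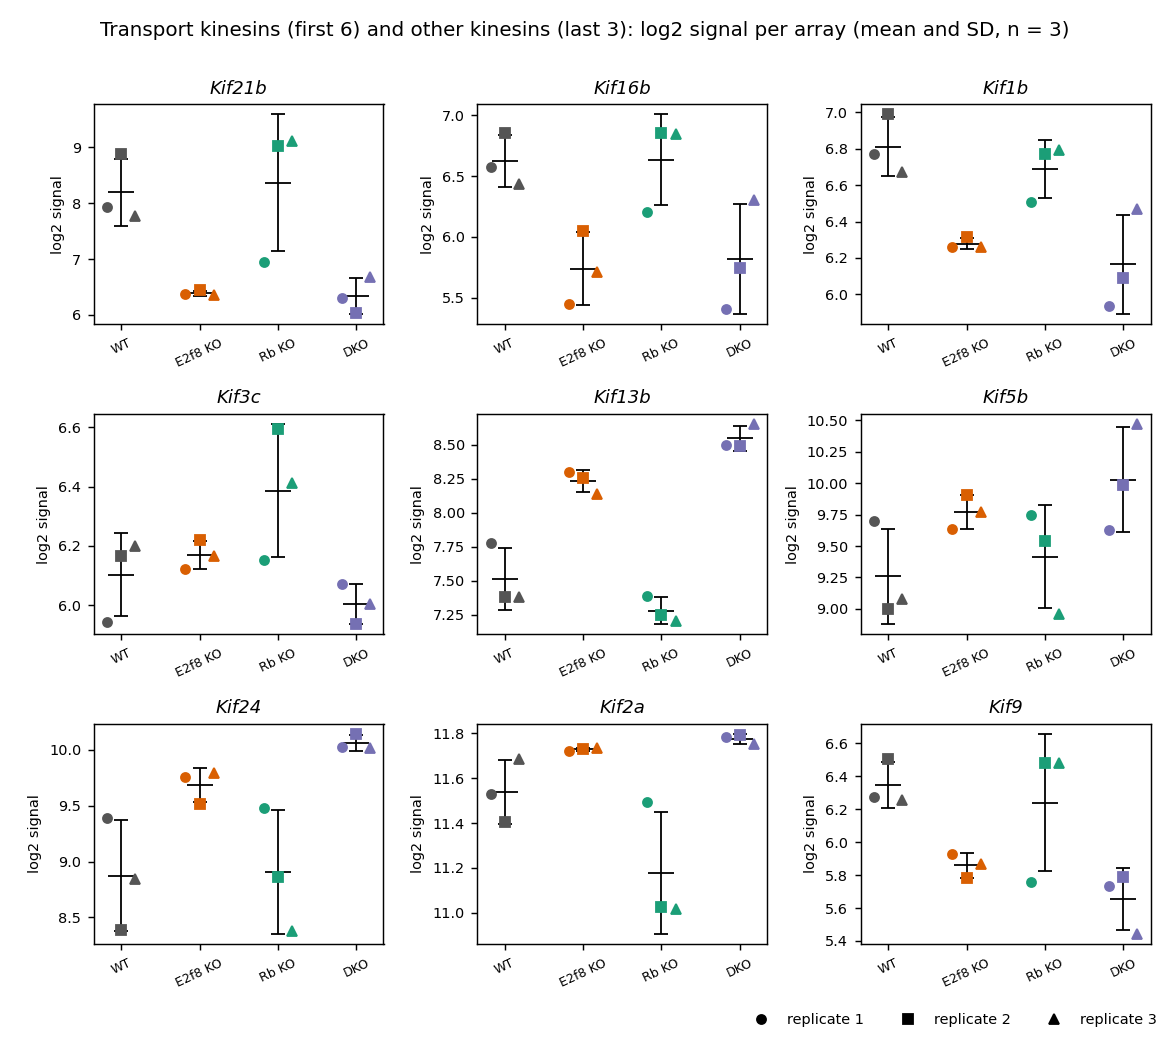
Log2 signal in each of the 12 arrays (points), with the mean and SD of each group of 3, for the transport and other kinesins called in at least 1 comparison, Kif27 left out. Kif13b and Kif24 are higher in DKO than in any WT array, while Kif21b ranges from 6.95 to 9.11 in the Rb KO arrays.

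In arrays labelled DKO against those labelled E2f8 KO, no kinesin was called by limma. No kinesin had an unadjusted p under 0.05, while 1.37% of all genes were called. The SE in that fit pooled the spread within all groups, WT and Rb KO included. The SD of the mitotic mean was 0.35 in WT and 0.70 in Rb KO, but 0.05 in E2f8 KO and 0.02 in DKO. The lack of calls in that fit therefore does not show that mitotic kinesins were equal in DKO and E2f8 KO. The median log2 difference was -0.12 for mitotic kinesins (-0.53 for Kif2c to 0.11 for Kif20b), -0.05 for transport kinesins and -0.05 for all genes. With the B cell covariate, 2 kinesins were called, Kif2c and Kif21b, and the mitotic median was -0.65. A fit of these groups alone called 1, Kif2c. For 6 mitotic kinesins, Kif11, Kif18a, Kif20a, Kif22, Kif2c and Kif4, all DKO arrays lay below all E2f8 KO arrays, against 16.4% of all genes. For the interaction, which asks whether the difference with the E2f8 label differed between the backgrounds of the Rb label, no kinesin was called, and 0.0502% of all genes were (10 genes). At an unadjusted p under 0.05 there were 2 kinesins of 38, Kif13b (0.55, adjusted p = 0.774) and Kif3c (-0.45, adjusted p = 0.774). Over all genes there were 1240 of 19938, so the kinesins did not exceed the general share.

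Spread between arrays differed by class. The pooled SD of log2 signal within groups had a median of 0.410 over mitotic kinesins, 0.179 over transport kinesins, 0.163 over the others and 0.203 over all genes. The median SE of a difference in E2f8 KO against WT was 0.283, 0.155, 0.148 and 0.168 in the same order. Single genes departed from this order, with an SE of 0.45 for the transport kinesin Kif21b and of 0.19 for the mitotic kinesin Kif18b.

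Genes that work with mitotic kinesins were counted in the same way. Of 19 measured relatives and partners, 15 rose in E2f8 KO against WT, 11 in DKO against WT and 14 in DKO against Rb KO, and none fell. Over all genes, 7.29%, 13.4% and 12.9% rose. Their median differences were 0.98, 0.82 and 0.98. Ect2, which is needed for cytokinesis, had a log2 signal of 11.41, 11.04 and 11.21 in WT and of 12.46, 12.28 and 12.30 in E2f8 KO, a difference of 1.13 ± 0.21 (adjusted p = 0.00331). Aurkb, the kinase of the passenger complex, rose by 0.94 ± 0.20 (adjusted p = 0.00667) in that comparison, and its partner Incenp by 1.18 ± 0.28 (adjusted p = 0.00622) in DKO against WT. Racgap1 and Cenpe, a kinesin of the kinetochore whose symbol lies outside the Kif series, were chosen after their values were seen. Racgap1 rose by 1.11 ± 0.28 (adjusted p = 0.0148) and Cenpe by 1.09 ± 0.33 (adjusted p = 0.0356) in E2f8 KO against WT.

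Of 19 measured partners of transport kinesins, 1 rose and 2 fell in E2f8 KO against WT, 2 rose and 3 fell in DKO against WT, and 1 rose and 2 fell in DKO against Rb KO. These were 15.8%, 26.3% and 15.8% of the list, near or below the 16.2%, 25.4% and 24.8% called over all genes. The medians were -0.07, -0.06 and -0.15. Madd, an adaptor of Kif1b cargo, had a log2 signal of 7.75, 8.17 and 7.94 in WT and of 6.90, 6.92 and 6.63 in E2f8 KO, a difference of -1.14 ± 0.19 (adjusted p = 0.00187). Mapk8ip3, a scaffold that links conventional kinesin to cargo, rose by 0.59 ± 0.16 in that comparison.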

How the data were processed

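The deposited values, 1 per probe set and array, were on a log2 scale from 1.0678 to 14.8423. The scale was inferred from their range. Per the submitters' processing notes the method was MAS5 (version not named), although the identifiers resemble a gene-level array type, so the software is uncertain. The sources used here give neither background correction nor normalization. Array medians were 6.22 to 6.35. Precision is limited by the number of arrays.

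Of 35557 probe sets, 21789 had 1 symbol, 1621 several and 12147 none listed. Symbols were updated by gene number for 21698. Per gene, the probe set of highest mean was kept, with no filter on low values, so that each kinesin had a test. limma 3.58.1 in R 4.3.3 was fitted to all 12 arrays with 1 coefficient per label, a mean trend and 8 residual degrees of freedom, with Benjamini-Hochberg adjustment over 19938 genes in each of 6 comparisons. Tests were two-sided, and the steps were tested on simulated data.

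Members and lists were chosen with earlier results of these data known. Named were all mitotic kinesins, other kinesins called in any comparison, the 4 of highest mean among the rest of each class, and per partner list the 2 genes of smallest p in E2f8 KO and in DKO against WT. Alternatives were other filters, normalizations, variance models, thresholds, probe set rules and classes, fits of only the groups compared, a replicate block, leaving out arrays, and a B cell covariate. Replicate numbers were not taken to pair arrays: correlations of same-numbered arrays ran from -0.387 to 0.482.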

Additional observations from a re-analysis of the deposited data

How the results depend on the processing

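Counted were 53 differences: mitotic kinesins in E2f8 KO and DKO against WT and in DKO against Rb KO, and called differences of other kinesins. Uncalled differences of other kinesins and the remaining comparisons were left out, so sign changes there are not in the count. Of 1208 values of these under 23 alternative settings, 947 kept direction and side of the threshold. Another 177 kept direction but lost the call, 45 gained it and 39 changed sign, all 39 with the B cell marker mean as a covariate. That slope comes from differences within groups, widest in Rb KO, and is carried over the larger distance between group means, so its values are uncertain. The log2 differences became, for E2f8 KO against WT, Kif14 -0.11, Kif15 -0.31, Kif18a -0.12, Kif2c -0.096, Kif16b 0.24, Kif1b 0.056 and Kif21b 0.70. For DKO against WT they became Kif11 -0.67, Kif14 -0.62, Kif15 -0.75, Kif18a -0.87, Kif18b -0.077, Kif20a -0.66, Kif22 -0.53, Kif23 -0.37, Kif2c -1.21, Kif4 -0.56, Kif16b 0.83, Kif1b 0.20, Kif21b 1.78, Kif24 -0.28 and Kif9 0.19. For DKO against Rb KO they became Kif11 -0.60, Kif14 -0.70, Kif15 -0.63, Kif18a -0.66, Kif18b -0.037, Kif20a -0.81, Kif22 -0.60, Kif23 -0.37, Kif2c -0.96, Kif4 -0.44, Kif16b 0.88, Kif1b 0.36, Kif21b 1.76, Kif24 -0.37, Kif2a -0.22, Kif3c 0.079 and Kif9 0.33. In these comparisons 0, 0 and 0 kinesins were called, and 2 in DKO against E2f8 KO. Medians of mitotic kinesins were 0.088, -0.62, -0.60 and, for DKO against E2f8 KO, -0.65, and of transport kinesins 0.056, 0.20 and 0.079. The cause was not tested.

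The kinesins called numbered 14, 0, 15, 18, 0 and 0 in 6 comparisons: E2f8 KO, Rb KO and DKO each against WT, then DKO against Rb KO and against E2f8 KO, then the interaction. Shares of all genes called under the alternative settings are not given, here or above. These counts therefore do not show whether a change was particular to kinesins. Array weights gave 25 in E2f8 KO and 2 in Rb KO against WT, and fits of only the groups compared gave 9 in DKO against Rb KO and 1 in DKO against E2f8 KO. An adjusted p under 0.01 gave 4 and 8 in E2f8 KO and DKO against WT and 9 in DKO against Rb KO, and also requiring a difference of at least 1 gave 8, 7 and 9. Leaving out 1 array gave 3 to 18, 0 to 0, 8 to 18, 9 to 21, 0 to 0 and 0 to 0. Medians of mitotic kinesins ran from 0.92 to 1.33, -0.35 to 0.18, 0.80 to 1.11, 0.69 to 1.30 and -0.16 to -0.07 over the first 5 comparisons, and of transport kinesins from -0.13 to 0.068, -0.057 to 0.023, -0.18 to -0.065, -0.16 to -0.040 and -0.10 to -0.032. With the lowest 40% removed the transport median was -0.13 in E2f8 KO against WT and -0.16 in DKO against Rb KO, and with the lowest 60% removed it was 0.51, 0.16, 0.77, 0.61 and 0.26, fewer genes being left. In DKO against E2f8 KO it was 0.0092 after quantile normalization and 0.019 after centring. Leaving out both arrays that stand apart in marker lists, chosen after seeing the data, gave 18, 0, 16, 20, 0 and 0 kinesins called. With the replicate number as a block, which the labels do not tie to a shared source, 15, 0, 16, 18, 0 and 0 were called, and 7 of 18 same-number pairs correlated above 0.1.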

Other observations

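Cytoplasmic dynein, the motor that walks opposite to most kinesins, was described with 20 measured genes of the motor and its dynactin adaptor. In E2f8 KO against WT, 3 rose and 2 fell, and in both DKO against WT and DKO against Rb KO 8 rose and 2 fell, with median log2 differences of 0.33, 0.34 and 0.39. These were 25% and, in both DKO comparisons, 50% of the list, where 16.2%, 25.4% and 24.8% of all genes were called. Dynll2, a light chain, had a log2 signal of 8.64, 7.54 and 8.06 in WT arrays, 9.80, 10.08 and 9.88 with the E2f8 KO label, 8.51, 8.04 and 7.37 with Rb KO, and 10.03, 10.13 and 10.68 with DKO. It rose by 1.84 ± 0.31 in E2f8 KO against WT (limma adjusted p = 0.00211) and by 2.20 ± 0.31 in DKO against WT. Another light chain, Dynlt3, fell by 0.86 ± 0.19 in E2f8 KO against WT, and Dctn4, a dynactin subunit, rose by 0.89 ± 0.16 in DKO against WT.

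A second probe set of Kif1c, of mean log2 signal 4.68, gave a difference of -0.61 in E2f8 KO against WT, where the one used gave -0.22.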
